A study of Mus musculus with 12 samples.

Results

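The effect of deleting the Mir181a2b2 locus was measured in epididymal white adipose tissue (eWAT) as the mean of the KO against flox difference under vehicle and the same difference under methotrexate (MTX). All 12 libraries of the series entered this comparison, 6 KO and 6 flox, and 18702 of 49315 genes in the table had enough counts to be tested. A gene was called when its averaged difference had a Benjamini-Hochberg adjusted p below 0.1 in edgeR's quasi-likelihood test and was at least 1.5-fold, and it counted as moving the same way when it was also at least 1.5-fold in that direction within each treatment. By this rule 1648 genes were higher and 1805 were lower in KO mice under vehicle and under MTX alike.

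The 4 groups, each of 3 mice with 1 library per mouse, were Mir181a2b2 flox/flox (flox) mice given vehicle, Mir181a2b2-/- (KO) mice given vehicle, flox mice given MTX and KO mice given MTX. Every mouse was fed a high-fat diet (HFD, 60% fat) for 12 weeks, and vehicle or MTX at 1 mg/kg was injected into the peritoneum each week. The flox mice serve as the control and the KO is systemic, so that no cell type of origin can be assigned to a difference, and the study's methods describe male mice compared with littermates of matching age and cage. Libraries are named by group and the number in their label, for example flox vehicle 3. In whole tissue, fewer cells of a type and less RNA per cell cannot be told apart.

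MicroRNAs are short RNAs that pair through their seed, the bases near their 5′ end, with sites in messenger RNAs and lower the stability or translation of those messengers. The miR-181 family is known for limiting inflammatory signaling in endothelial cells (ECs) and for its role in lymphocyte development. In obese visceral fat, macrophages gather around dying adipocytes, take up lipid and proliferate, while adipocytes lose much of their program of lipid synthesis and insulin response.

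The mature products of the locus are shown because they fix what the deletion removes and what other loci still encode. Sequences are those of RefSeq for GRCm38, 5′ to 3′, with the seed (bases 2 to 8) in capitals.
miR-181a-5p: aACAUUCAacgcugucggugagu
miR-181b-5p: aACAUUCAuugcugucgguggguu
miR-181a-2-3p: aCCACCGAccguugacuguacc
miR-181b-2-3p: cUCACUGAucaaugaaugcaaa
miR-181c-5p: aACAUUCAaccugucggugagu
miR-181d-5p: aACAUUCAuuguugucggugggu
The deleted precursors lie on the plus strand of chromosome 2, Mir181a-2 at chr2:38852735-38852810 and Mir181b-2 at chr2:38853830-38853918, within the bounds of Nr6a1, which is on the minus strand. A second pair of genes on chromosome 1, Mir181a-1 and Mir181b-1, encodes 5p strands with the same letters, and Mir181c and Mir181d on chromosome 8 encode 5p strands with the same seed. The libraries held next to no reads from these short genes: Mir181a-2 had 2 counts in flox MTX 4 and 0 in the other 11 libraries, and Mir181b-2 had 0 in all 12. Loss of the microRNAs in the KO mice therefore could not be checked in these counts.

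Around the locus 15 genes were tested, of which 1 was called lower (6.67%, below the 16% of all genes) and none higher. For 1 other gene, which was not called, all 6 KO libraries lay below all 6 flox libraries, a separation seen in 2.87% of all genes. Nr6a1 (chr2:38723370-38927688), a nuclear receptor gene whose interval spans the precursors, was the one called. It stood at 5.77, 10.3 and 6.42 CPM in the flox vehicle libraries and 3.98, 4.07 and 3.52 CPM in the KO vehicle libraries, and at 3.17, 4.82 and 3.94 CPM against 2.83, 3.21 and 3.19 CPM under MTX. The averaged log2 fold change was -0.66 ± 0.19 (SE, adjusted p = 0.0214 in edgeR), and the groups overlapped under MTX. The call was lost without flox vehicle 3, the library with the highest sum of epididymis genes (25300 CPM). The part of such RNA in the Nr6a1 difference was not tested. The antisense transcript of Nr6a1, Nr6a1os (chr2:38823257-38852370), had an averaged log2 fold change of 0.21 (adjusted p = 0.751 in edgeR). Since the strand setting of the counting is not stated, reads of the 2 genes may not be separated.

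Depth was even, from 19495310 to 23976469 counts per library. Adipocyte marker genes took 26800 to 104000 CPM in sum (CPM are counts scaled to a common library size), and the adipokine Adipoq was at 375 to 3618 CPM, so the markers of the labelled tissue were present in every library. Apart from genotype, 3 features set libraries apart. Genes of the epididymis, the organ that lies against this fat pad, summed to 2870 to 25300 CPM in the flox vehicle libraries and 1030 CPM in flox MTX 1, but to 14.6 to 64.5 CPM in the other 8 libraries, all 6 KO libraries among them. Genes of testis germ cells summed to 404 to 882 CPM in the flox vehicle libraries and lay below that range in the other 9 libraries, down to 57.5 CPM. Flox MTX 2 held macrophage marker RNA at 7720 CPM, within the range of the KO libraries (5930 to 13300 CPM), while the other flox libraries had 843 to 4210 CPM.

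Over all genes the averaged comparison called 2347 higher (12.5% of the genes tested) and 2984 lower (16%). Of the genes called higher, 70.2% moved the same way in both treatments (8.81% of the genes tested), and of those called lower, 60.5% did (9.65%). A further 237 genes called lower had opposite signs in the 2 treatments, against 32 of those called higher. Of the 3453 same-way genes, 2845 were also called in the vehicle pair by itself and 608 were called by the 6 libraries a side together. No gene passed edgeR's test in the MTX pair by itself, where 4576 genes had an unadjusted p below 0.05 and DESeq2 called 2769, and edgeR called 4132 without flox MTX 2. The effect was larger under vehicle for 83.7% of the genes that were higher and 67% of those that were lower, with a median log2 fold change of 1.51 under vehicle and 1.02 under MTX for the genes that were higher and of -1.74 and -1.25 for the genes that were lower. Within each treatment the 3 KO libraries lay entirely above the 3 flox libraries for 1123 of the same-way genes (6% of the genes tested) and entirely below for 610 (3.26%). At the edge of the adjusted p limit, Sez6 was just inside (log2 fold change 0.91, adjusted p = 0.09999) and Rtn2 just outside (-0.63, adjusted p = 0.1001).

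**Figure D1:**
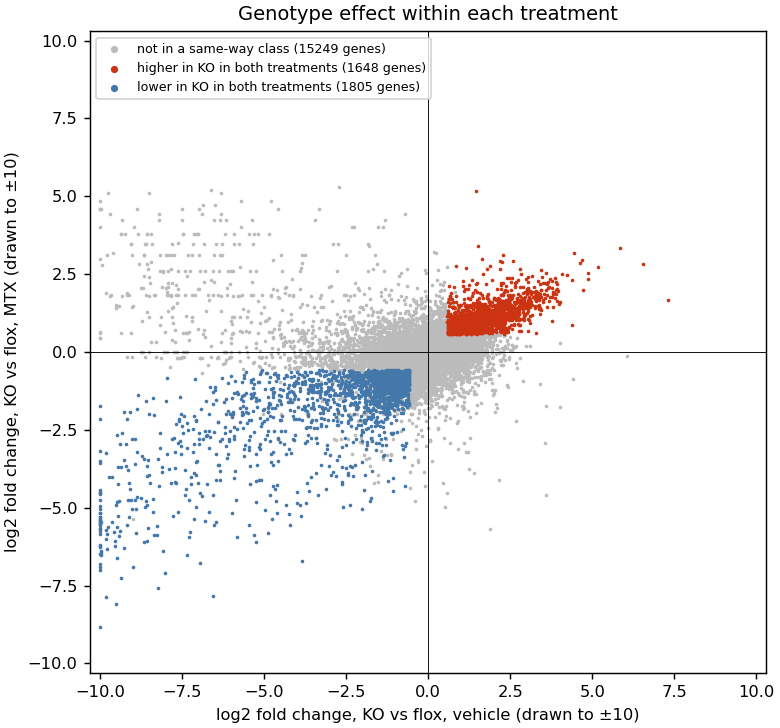
Log2 fold change of KO against flox under vehicle (x axis) and under MTX (y axis) for the 18702 genes tested, drawn to 10 in either direction, 1 point per gene. The 1648 red genes lie in the upper right and the 1805 blue genes in the lower left, and the grey points at the upper left are genes that were lower under vehicle and higher under MTX.

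Macrophage genes rose in KO mice. Of 25 tested members, 22 were called higher and none lower, against 12.5% and 16% of all genes, and 21 moved the same way. The median averaged log2 fold change was 1.98, where the median of all tested genes was -0.08. The list summed to 843 to 1620 CPM in flox vehicle and 5930 to 9840 CPM in KO vehicle, and to 1410 to 7720 CPM in flox MTX and 8320 to 13300 CPM in KO MTX. Cd68, a lysosomal membrane protein used to mark macrophages, was at 40.7, 27.3 and 43.3 CPM in flox vehicle and 353, 440 and 756 CPM in KO vehicle, and at 182, 257 and 17.9 CPM in flox MTX and 541, 754 and 432 CPM in KO MTX. Each KO library exceeded each flox library, although flox MTX 1 and 2 stood well above the flox vehicle libraries. Its averaged log2 fold change was 2.86 ± 0.50 (SE, adjusted p = 0.00301), with an exact stratified permutation p of 0.005, two-sided, which is the smallest that 400 rearrangements within treatments can give. Tyrobp, the adaptor of activating myeloid receptors, rose by 2.55, and Fcgr1, a receptor for immunoglobulin G, by 2.38 on the log2 scale.

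Lipid-associated macrophages, the cells that line dying adipocytes, had 16 of 18 marker genes called higher (88.9%, against 12.5% of all genes) and 15 moving the same way, with a median of 2.42. Gpnmb (chr6:49036546-49070929), a transmembrane glycoprotein of lipid-laden macrophages, was at 102, 43.9 and 70.7 CPM in flox vehicle against 769, 1098 and 2166 CPM in KO vehicle. Under MTX the values were 326, 727 and 14.9 CPM in flox and 1723, 2780 and 1402 CPM in KO. The spread within flox MTX was wide, but no flox library reached a KO library, and the averaged log2 fold change was 3.35 ± 0.69 (SE, adjusted p = 0.00548). Trem2, a lipid receptor of these cells, stood at 27.2, 14.4 and 23.8 CPM in flox vehicle and 247, 288 and 526 CPM in KO vehicle, then 124, 302 and 11.2 CPM in flox MTX and 406, 581 and 334 CPM in KO MTX. Here flox MTX 2 overlapped the KO vehicle libraries, while within each treatment the genotypes stayed apart. Mmp12, the macrophage elastase, and Atp6v0d2, a subunit of the lysosomal proton pump, rose by 2.97 and 3.03. The lysosome list had 22 of 39 members called higher (56.4%, against 12.5% of all genes) and 20 moving the same way, led by the proton pump subunit Tcirg1 (2.18 ± 0.32, SE) and the protease Lgmn (1.79).

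Inflammatory mediators were higher in the libraries with more macrophage marker RNA, whose part in the groups that follow was not tested. Of 31 cytokines, chemokines and receptors tested, 19 were called higher (61.3%, against 12.5% of all genes), 15 moved the same way and none was called lower. Il1rn, the antagonist of the interleukin-1 receptor, was at 2.86, 2.08 and 8.27 CPM in flox vehicle, 37, 44.8 and 109 CPM in KO vehicle, 17.5, 15.3 and 1.38 CPM in flox MTX and 58.1, 71.5 and 46.8 CPM in KO MTX. All KO values lay above all flox values, with an averaged log2 fold change of 3.11 ± 0.56 (SE, adjusted p = 0.0031). Ccl3, a chemokine for monocytes, rose by 3.03 ± 0.50, Il10, an anti-inflammatory cytokine, by 2.40 ± 0.41, and Ccl9 by 2.27 ± 0.41 (SE). Antigen presentation had 8 of 14 members called higher (57.1%), but 5 moved the same way and for none did the libraries separate within both treatments. Of 26 interferon-stimulated genes 7 were called higher (26.9%, against 12.5% of all genes) and 3 moved the same way, led by Oasl1 at 1.92. Of 24 NF-κB subunits and inhibitors 4 were called higher (16.7%, near the 12.5% of all genes) and 1 moved the same way, and 1 to 5 were called when single libraries were left out. Among 20 T cell genes, 3 were called higher (15%, also near that share), and 11 without flox MTX 2. Il7r, the receptor of interleukin-7, led them at 2.72 ± 0.38 (SE).

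Mast cell genes moved in the same direction, with 9 of 11 called higher (81.8%, against 12.5% of all genes) and all 9 moving the same way (median 2.42). The mast cell list summed to 39.3 to 46.1 CPM in flox vehicle and 102 to 151 CPM in KO vehicle, and to 30.3 to 71.5 CPM in flox MTX and 78.4 to 412 CPM in KO MTX. The highest value belonged to KO MTX 3 alone. Tpsb2, a mast cell tryptase, had 10.8, 15.4 and 1.5 CPM in flox MTX against 15.7, 114 and 17.4 CPM in KO MTX, with an averaged log2 fold change of 2.73 ± 0.63 (SE, adjusted p = 0.00861). The list kept 9 calls whichever library was left out.

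Genes of cell division rose too. Of 40 mitosis genes 35 were called higher (87.5%, against 12.5% of all genes), 32 moved the same way, and for 26 the 6 KO libraries lay above all 6 flox libraries, a separation seen upward in 4.87% of all genes and downward in 2.87%. The median was 1.21. Ndc80, a kinetochore subunit, was at 1.48, 2.16 and 3.09 CPM in flox vehicle and 6.65, 8.43 and 13.8 CPM in KO vehicle, and at 5.01, 5.14 and 2.88 CPM in flox MTX and 10.8, 11.7 and 9.09 CPM in KO MTX. Its averaged log2 fold change was 1.69 ± 0.25 (SE, adjusted p = 0.0024). Cdk1, the kinase that drives entry into mitosis, rose by 1.63 ± 0.30, and the chromosomal passenger genes Birc5 and Aurkb by 1.68 and 1.61. DNA replication had 19 of 37 members called higher (51.4%) and none lower, led by the origin licensing factor Cdt1 at 1.80 and by Mcm10 at 1.49. Among 24 G1 cyclins and inhibitors 6 were called higher (25%, against 12.5% of all genes) and 1 lower (4.17%, against 16%).

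Endothelial genes were higher in KO mice by a smaller amount. Of 24 members 18 were called higher (75%, against 12.5% of all genes), 12 moved the same way and 1, Rgcc, was called lower (-0.64), with a median of 0.82. Eng, the endoglin coreceptor for transforming growth factor β, had 61.1, 60.6 and 65.8 CPM in flox vehicle, 170, 182 and 162 CPM in KO vehicle, 111, 64.4 and 64.2 CPM in flox MTX and 140, 132 and 147 CPM in KO MTX. The 6 KO values all exceeded the 6 flox values, and the averaged log2 fold change was 1.13 ± 0.14 (SE, adjusted p = 0.00227). Sox17, a transcription factor of arterial endothelium, was at 10.1, 17.8 and 13.2 CPM and 41.4, 46.1 and 35.1 CPM under vehicle, and at 17.4, 11.4 and 13 CPM and 31.1, 18.7 and 38.6 CPM under MTX, with KO again above flox throughout. Vwf, von Willebrand factor, rose by 1.28 ± 0.25, and Sox18 by 1.03 ± 0.32 (SE), and for both the genotypes overlapped under MTX. Eng and Sox17 were the only 2 of the 24 genes with all 6 KO libraries above all 6 flox libraries.

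The adhesion molecules through which leukocytes attach to ECs were called in part. Of 17 leukocyte adhesion genes 10 were called higher (58.8%, against 12.5% of all genes) and 6 moved the same way, led by the leukocyte integrins Itgb2 (2.21) and Itgam (2.11) and by Cd44 (1.93), which leukocytes also express. Icam1, a ligand of these integrins, was at 9.07, 9.28 and 9.74 CPM in flox vehicle and 23.7, 28.6 and 32.1 CPM in KO vehicle, without overlap. Under MTX it was at 14.5, 29.1 and 12.8 CPM in flox and 28.2, 44.7 and 24.5 CPM in KO, where flox MTX 2 lay within the KO range. The averaged log2 fold change was 1.19 ± 0.22 (SE, adjusted p = 0.00346, exact permutation p = 0.015). Vcam1 had 14, 14.5 and 32.9 CPM in flox vehicle against 48.7, 45.6 and 45.9 CPM in KO vehicle, and 45.3, 82.2 and 24.2 CPM in flox MTX against 72.4, 79.9 and 66 CPM in KO MTX. It rose by 0.86 ± 0.29 on average (SE, adjusted p = 0.0409) but by 0.52 on the log2 scale under MTX, short of 1.5-fold, so it was not among the same-way genes, and the call was lost when flox vehicle 3 and flox MTX 1 were left out together. Sele had 0 to 8 counts per library and was not tested.

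Extracellular matrix genes had 25 of 40 members called higher (62.5%, against 12.5% of all genes), 14 moving the same way and 1 called lower (2.5%, against 16%). Mmp3, stromelysin, was at 0.911, 0.826 and 1.29 CPM in flox vehicle and 19.6, 26.6 and 42.4 CPM in KO vehicle. It was at 10.8, 15.9 and 1.5 CPM in flox MTX and 55, 67.9 and 42.9 CPM in KO MTX, and the averaged log2 fold change was 3.71 ± 0.46 (SE, adjusted p = 0.00227). Timp1, an inhibitor of such proteases, rose by 2.76, and the collagen-binding proteoglycan Lum by 1.85.

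**Figure D2:**
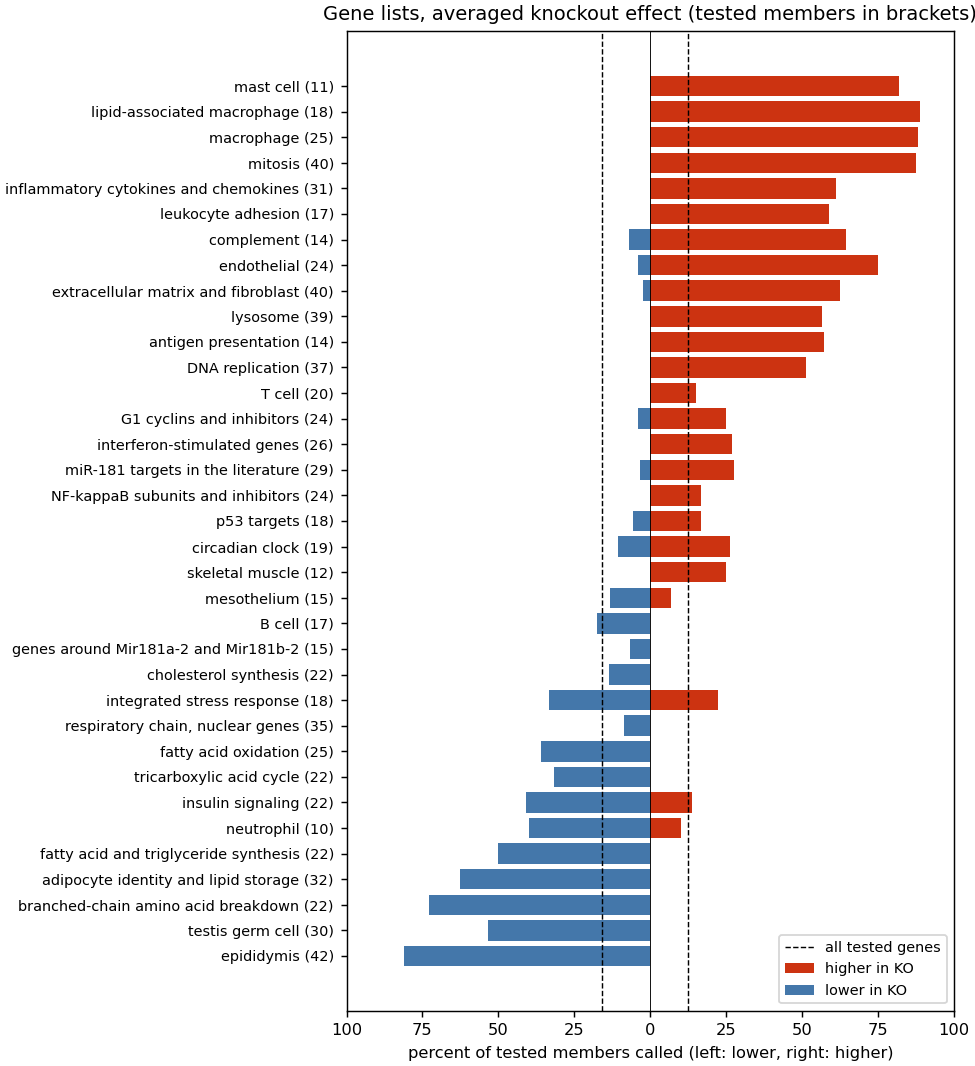
Percent of the tested members of each gene list called higher (red, right) or lower (blue, left) in KO mice in the averaged comparison, with the number tested in brackets and the share of all tested genes as dashed lines (12.5% higher, 16% lower). Lipid-associated macrophage, macrophage, mitosis and mast cell lists reach furthest to the right, and epididymis, branched-chain amino acid and adipocyte lists furthest to the left.

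Ranked by the smaller of the 2 treatment effects, the 12 genes that rose most in both treatments were Hmga2, Gdf3, Serpinb1c, Htr2b, Npas4, Sstr2, Mmp3, Adam8, Gpnmb, Zranb3, Tpsb2 and Tm4sf19. Hmga2 (chr10:120361275-120476469), a chromatin protein of embryonic and mesenchymal cells, was at 0.217, 0.236 and 0.139 CPM in flox vehicle and 3.68, 9.15 and 22.4 CPM in KO vehicle. Under MTX it was at 1.27, 2.23 and 0.25 CPM in flox and 12.9, 18.2 and 7.47 CPM in KO. The flox vehicle values were near the level of 3 counts, KO values did not overlap any flox value, and the averaged log2 fold change was 4.58 ± 0.58 (SE, adjusted p = 0.00227). Gdf3 (chr6:122605403-122610087), a ligand of the transforming growth factor β family made by adipose macrophages, had 0.13, 0.472 and 1.06 CPM in flox vehicle and 8.77, 10.8 and 16.6 CPM in KO vehicle, and 1.89, 4.59 and 0.375 CPM in flox MTX and 25, 25.8 and 12.5 CPM in KO MTX. It rose by 3.81 ± 0.55 (SE, adjusted p = 0.00227). Htr2b, a serotonin receptor, rose by 3.95, the metalloprotease Adam8 by 3.29, and Npas4, an activity-induced transcription factor, by 3.04. For 11 of the 12 genes the 6 KO libraries lay above all 6 flox libraries, and Tm4sf19 was the exception.

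**Figure D3:**
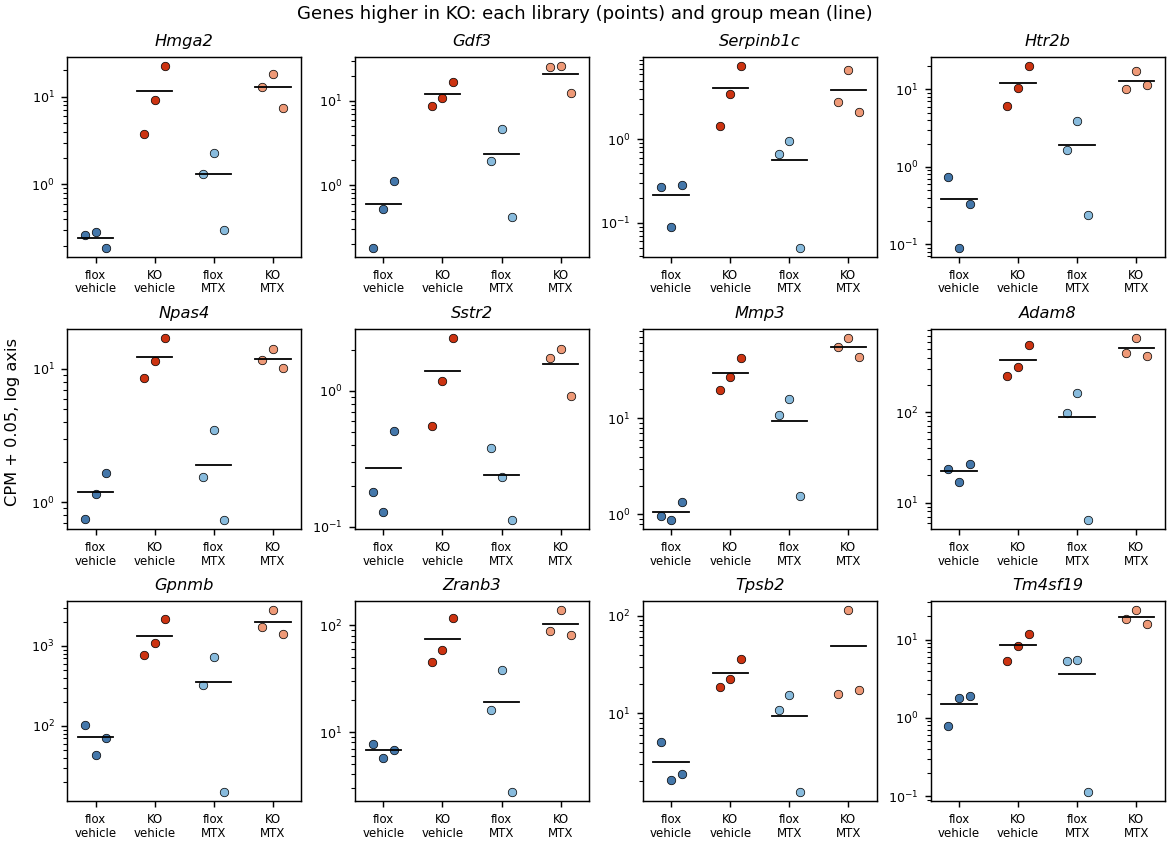
CPM plus 0.05 on a log axis in each library (points) with the group mean (line) for the 12 genes that rose most in both treatments. In each panel the KO points of a treatment lie above its flox points, for Hmga2 at 3.68 to 22.4 CPM against 0.139 to 2.23 CPM.

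Genes of adipocyte identity and lipid storage moved the other way. Of 32 members 20 were called lower (62.5%, against 16% of all genes), 15 moved the same way and none was called higher (median -0.85). The list as a whole overlapped between genotypes under vehicle, at 35700 to 72100 CPM in flox and 40200 to 61000 CPM in KO. Under MTX it was at 50200 to 104000 CPM in flox and 26800 to 50500 CPM in KO, where KO MTX 4 lay just above flox MTX 2. Cfd (chr10:79890853-79892655), the adipokine adipsin, was at 7981, 1447 and 1620 CPM in flox vehicle and 694, 395 and 173 CPM in KO vehicle, and at 837, 2455 and 2198 CPM in flox MTX and 244, 63.7 and 274 CPM in KO MTX. All 6 KO values were below all flox values, with an averaged log2 fold change of -3.18 ± 0.59 (SE, adjusted p = 0.00351). Elane, which lies next to Cfd on chromosome 10 and encodes a neutrophil protease, moved with it (-3.16) at 0 to 2.59 CPM. Adrb3, the adrenergic receptor that starts lipolysis, fell by 2.75 ± 0.60, Pck1, which feeds glycerol synthesis, by 2.59 ± 0.53, and the adipokine Retn by 2.43 ± 0.53 on the log2 scale (SE). For Pck1 the genotypes overlapped under vehicle. Leaving out flox MTX 4, KO MTX 3 or KO vehicle 3 lowered the count of calls in this list to 13.

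Of lipid synthesis genes, which adipocytes share with the list above, none was called higher, with 11 of 22 members called lower (50%, against 16% of all genes), 10 of them in both treatments, and a median of -0.82. Thrsp, a regulator of lipogenesis, was at 922, 311 and 581 CPM in flox vehicle and 259, 233 and 150 CPM in KO vehicle, and at 547, 406 and 2212 CPM in flox MTX and 130, 98.2 and 191 CPM in KO MTX. No KO value reached a flox value, and the averaged log2 fold change was -2.21 ± 0.44 (SE, adjusted p = 0.00461). Scd1, the stearoyl-CoA desaturase, fell by 1.94 ± 0.49 and Acaca, acetyl-CoA carboxylase, by 1.53 ± 0.40 (SE). The genotypes overlapped under vehicle for Scd1 and under MTX for Acaca. Fads2 had an averaged log2 fold change of -2.195, with a mean 7.84 times as high in the flox libraries with epididymal RNA as in flox MTX 2 and 4. Without flox MTX 4 the list had 7 calls and without flox MTX 2 it had 17.

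The breakdown of branched-chain amino acids, a pathway active in adipocytes, had the largest share of called members among the metabolic lists, with 16 of 22 lower (72.7%, against 16% of all genes), 13 in both treatments, and 14 to 18 calls when single libraries were left out. Aldh6a1, a mitochondrial dehydrogenase of valine breakdown, was at 612, 534 and 393 CPM in flox vehicle, 204, 167 and 107 CPM in KO vehicle, 302, 259 and 544 CPM in flox MTX and 144, 79.6 and 182 CPM in KO MTX. The genotypes did not overlap, and the averaged log2 fold change was -1.57 ± 0.26 (SE, adjusted p = 0.00267). Ivd, of leucine breakdown, fell by 1.24 ± 0.25, and Acadsb, of isoleucine breakdown, by 1.21 ± 0.21 (SE). Fatty acid oxidation had 9 of 25 members called lower (36%) and 4 moving the same way, and the tricarboxylic acid cycle 7 of 22 (31.8%) and 3. Without flox MTX 4 the called counts became 4 and 1, and without flox MTX 2 they became 11 and 12. Nuclear genes of the respiratory chain had 3 of 35 called lower (8.57%, below the 16% of all genes). None was called without flox MTX 4 and 10 were called without flox MTX 2. Of these 35 genes, 34 had a negative averaged log2 fold change (median -0.39), as had all 22 of the tricarboxylic acid cycle (median -0.47).

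Insulin signaling had 9 of 22 members called lower (40.9%, against 16% of all genes) and 3 higher (13.6%, near the 12.5% of all genes). Irs2 (chr8:10984681-11008458), an insulin receptor substrate, was at 84.3, 54.6 and 77.5 CPM in flox vehicle and 20.6, 19.8 and 18.8 CPM in KO vehicle, and at 38.2, 50.3 and 58.5 CPM in flox MTX and 25.9, 27.9 and 20.2 CPM in KO MTX. No KO value reached a flox value, and the averaged log2 fold change was -1.43 ± 0.14 (SE, adjusted p = 0.00227). Irs1, its paralog, had 14.2, 5.98 and 10.3 CPM in flox vehicle against 4.13, 3.09 and 2.34 CPM in KO vehicle, 5.81, 10.1 and 16.9 CPM in flox MTX and 4.13, 2.34 and 3.98 CPM in KO MTX, and fell by 1.66 ± 0.31 (SE, adjusted p = 0.00358). Akt1 (0.64) and Ptpn1 (0.60) were among those called higher, and 5 members were called lower without flox MTX 4.

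**Figure D4:**
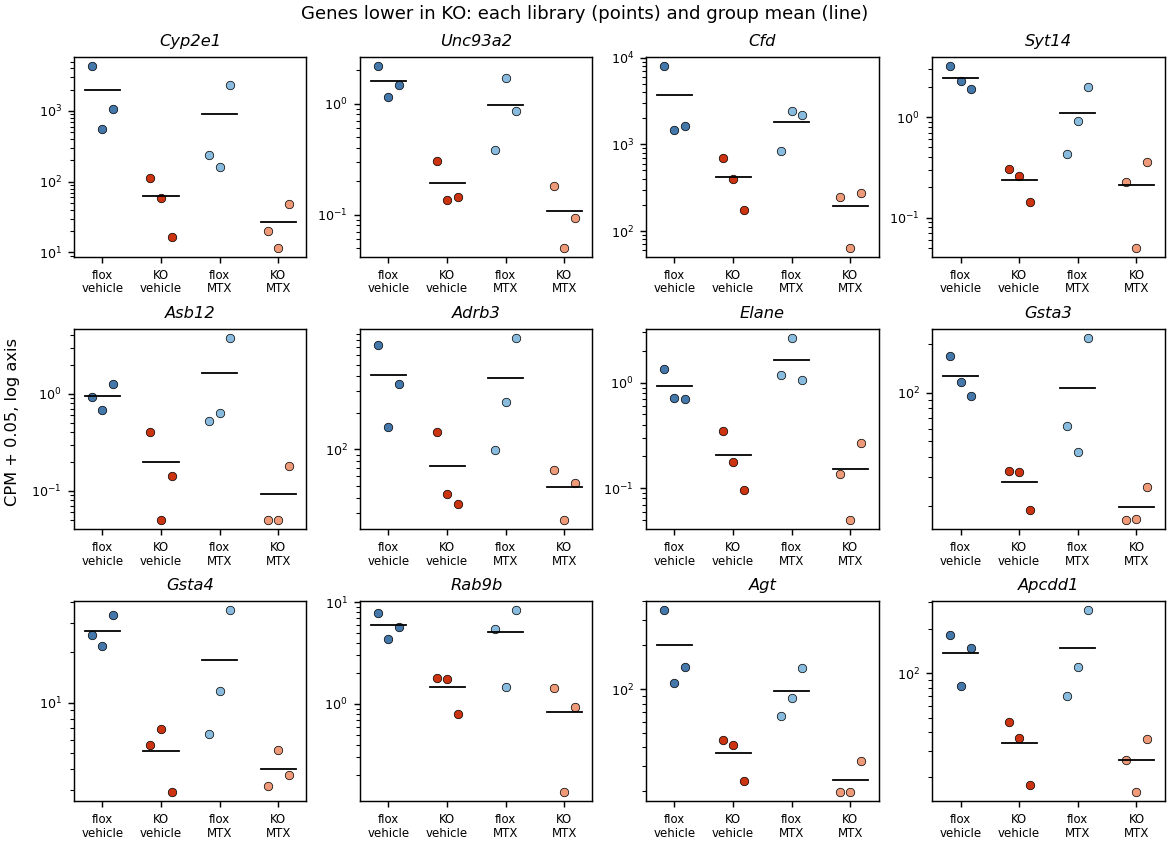
CPM plus 0.05 on a log axis in each library (points) with the group mean (line) for 12 nuclear genes that were lower in KO mice in both treatments and did not follow epididymal RNA among the flox libraries. KO points lie below flox points within each treatment, for Cyp2e1 at 11.5 to 113 CPM against 160 to 4303 CPM.

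The genes that fell most in both treatments by the same ranking were Spint3, Defb40, Rgn, Krt15, Asb11, Acbd7, mt-Nd3, Cldn8, Wfdc6a, Slc46a2, Cyp2e1 and Unc93a, and except for mt-Nd3 and Cyp2e1 each had a mean at least 11.9 times as high in the 4 flox libraries with epididymal RNA as in flox MTX 2 and 4. Spint3, a protease inhibitor gene, was at 92.3, 291 and 35 CPM in flox vehicle and 16.1, 0.0454 and 0.375 CPM in flox MTX, the order of the epididymis sums, and at 0.0504, 0.127 and 0.375 CPM in KO vehicle and 0, 0.0433 and 0 CPM in KO MTX. Defb40, a defensin gene, was at 28.5, 63.6 and 6.42 CPM in flox vehicle and 3.78, 0.0454 and 0.125 CPM in flox MTX and had at most 1 count in any KO library. Against a floor of 3 counts in each library it was at least 235-fold lower in KO mice under vehicle and at least 10.1-fold lower under MTX, where the bound rests on flox MTX 1 because flox MTX 2 and 4 lay below the floor themselves. The epididymis list itself had 34 of 42 tested members called lower, 33 in both treatments, and 22 without flox MTX 1, and its median was -6.92 as fitted and -5.51 with values under the floor set to it. The testis list had 16 of 30 called lower and 1 moving the same way (median -1.94, or -2.16 at the floor).

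To see which of the lower genes stood apart from this pattern, the mean over the 4 flox libraries with epididymal RNA was divided by that over flox MTX 2 and 4 for every gene. The ratio was 2 or more for 15.3% of all tested genes. Of the 1805 genes that were lower in both treatments, 831 had a ratio of 2 or more and 974 a ratio below 2. Of the 610 lower genes without overlap within treatments, 190 (31.1%) had a ratio of 2 or more and 420 a ratio below 2. This split was made after the values were seen and carries no test. Cyp2e1 (chr7:140763739-140774987), a cytochrome P450, led the 420 among nuclear genes, at 4303, 560 and 1053 CPM in flox vehicle, 113, 58.1 and 16.7 CPM in KO vehicle, 238, 160 and 2324 CPM in flox MTX and 20.1, 11.5 and 48.2 CPM in KO MTX. The flox values ranged widely yet stayed above all KO values, and the averaged log2 fold change was -5.04 ± 0.90 (SE, adjusted p = 0.00311). The glutathione transferases Gsta3 and Gsta4 fell by 2.31 ± 0.38 and 2.28 ± 0.39, and Agt, angiotensinogen, by 2.24 ± 0.32 (SE). Gsta3 and Gsta4 have close relatives in the genome, and how reads shared between such genes were counted is not stated.

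With the log2 epididymis sum as a covariate, which overlaps strongly with genotype, 9 genes were called higher and 17 lower, of which 9 and 16 were same-way genes. The 9 were Plvap, B3gnt3, Tal1, Prkch, Arap3, Vtn, Eng, Sparcl1 and Slc9a3r2, named here after their values were seen. Plvap, the diaphragm protein of fenestrated ECs, was at 22, 28.9 and 28.5 CPM in flox vehicle, 87.5, 118 and 111 CPM in KO vehicle, 62.8, 26.1 and 21 CPM in flox MTX and 91.9, 88.6 and 89 CPM in KO MTX. Each KO library exceeded each flox library, with flox MTX 1 the nearest. Tal1, a hematopoietic and endothelial transcription factor, was at 2.43, 4.01 and 2.96 CPM and 6.95, 8.43 and 7.36 CPM under vehicle and at 3.31, 2.23 and 2.06 CPM and 7.61, 7.02 and 6.95 CPM under MTX, and its averaged log2 fold change was 1.39 ± 0.18 (SE). Irs2, Ltf and Unc93a2 were among the 17. None of the macrophage, mitosis or adipocyte calls passed in this fit.

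Reads from 1 stretch of the mitochondrial genome split the libraries in another way. mt-Nd3, a subunit gene of complex I at chrM:9459-9806, had 334, 10 and 620 counts in the flox vehicle libraries 1, 3 and 4 and 439, 473 and 660 counts in the flox MTX libraries. It had 7, 6 and 3 counts in KO vehicle and 11, 5 and 15 counts in KO MTX. So 5 flox libraries were high, and flox vehicle 3 was as low as the 6 KO libraries. The pseudogene Gm28438 on chromosome 1 (chr1:24612775-24613119, minus strand) showed the reverse, with 11, 490 and 18 counts in flox vehicle, 11, 8 and 8 counts in flox MTX, 417, 447 and 368 counts in KO vehicle and 463, 283 and 415 counts in KO MTX. Of the counts for the 2 genes together, the pseudogene held 1.2% to 3.19% in the 5 flox libraries and 96.5% to 99.2% in the other 7. The summed counts differed far less, at 345 to 668 in the 5 flox libraries and 288 to 500 in the other 7.

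The 2 transcripts align over 345 bases with 1 substitution, T3C, counted from 1 at the 5′ end of mt-Nd3 (chrM:9461). Their first 30 bases are shown in the GENCODE M21 annotation of GRCm38, with that base in capitals.
mt-Nd3: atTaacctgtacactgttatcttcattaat
Gm28438: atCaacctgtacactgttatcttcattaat
The neighbouring genes behaved likewise. mt-Nd4l had 42 to 74 counts in the 5 flox libraries and 4 to 9 in the other 7, and its copy Gm10222, identical over 294 bases, had 3 to 10 and 31 to 55. The transfer RNA genes mt-Tg and mt-Tr had 50 to 126 and 29 to 42 counts in the 5 flox libraries, and 0 to 1 and 0 to 3 in the other 7. mt-Co3 and its copy Gm28437 split in the same direction by less. Copies of mt-Atp6, mt-Co2, mt-Nd4 and mt-Co1 in the same block of chromosome 1 showed no such split. All 5 mitochondrial genes of the stretch were called lower and the 3 copies higher. For mt-Nd4l and Gm10222 together the counts were 46 to 84 in the 5 flox libraries and 38 to 59 in the other 7. No copy was aligned for mt-Tg and mt-Tr, and the cause of the split was not tested. The split nearly coincided with genotype, with flox vehicle 3 the exception, so the part of each in these calls cannot be told apart. Leaving out flox vehicle 3 gave 1702 same-way genes higher and 1893 lower, sharing 95.7% and 92.7% of the original genes.

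**Figure D5:**
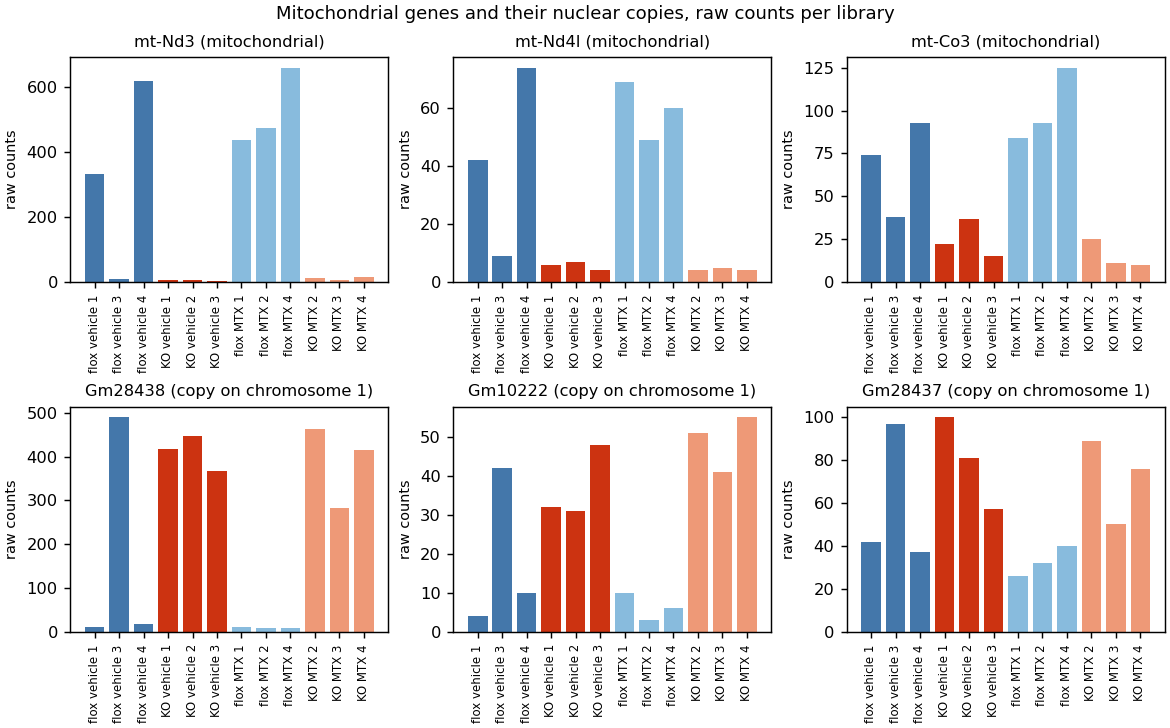
Raw counts per library for 3 mitochondrial genes (top) and their copies on chromosome 1 (bottom). For mt-Nd3, 5 flox libraries have 334 to 660 counts and flox vehicle 3 and the KO libraries have 3 to 15, while Gm28438 is high where mt-Nd3 is low.

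Of the mitochondrial protein genes with deep counts, mt-Nd2, mt-Co1, mt-Nd4, mt-Nd5, mt-Nd6 and mt-Cytb were called lower and mt-Nd1 fell short of the fold limit (-0.58, adjusted p = 0.0573). Each of the 7 had the larger log2 fold change under MTX. mt-Nd6 moved the same way in both treatments (-0.63 under vehicle, -1.30 under MTX). mt-Cytb had log2 fold changes of -0.43 under vehicle and -1.31 under MTX and an averaged -0.87 ± 0.24 (SE, adjusted p = 0.0199).

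Whether messengers with miR-181 sites rose in KO mice was examined from the 3′ untranslated regions. The site searched was the 7-base complement of the seed, UGAAUGU, on the sense strand of the longest annotated region per gene, available for 15432 tested genes. It occurred in 18.2% of all of them, in 17.5% of those higher in both treatments and in 17.2% of those lower in both. Site density was 0.128 per kb in the genes that were higher, 0.138 per kb in those that were lower and 0.138 per kb over all genes. The median averaged log2 fold change was -0.07 for the 2814 genes with a site and -0.06 for the 12618 without, and it was -0.11 for the 584 genes with 2 or more. A match is a string of letters and not a shown site of action.

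Of 29 tested genes described in the literature as miR-181 targets, 8 were called higher (27.6%, against 12.5% of all genes) and 1 lower (3.45%, against 16%). Among those higher, 7 moved the same way. Of the 8, 5 held the 7-base site, as did 12 of the 20 that were not called. Runx1, a hematopoietic transcription factor with 2 sites, rose by 1.11 ± 0.31, and Tnf, with 1 site, by 1.58 ± 0.38 (SE), and both genes are expressed by leukocytes. Egr1, an immediate early gene without a site, rose by 1.51 ± 0.28 (SE), and Esr1, the estrogen receptor with 2 sites, fell by 1.03. Kpna4, an importin that carries NF-κB to the nucleus, had group means of 118, 110, 149 and 123 CPM, in the order flox vehicle, KO vehicle, flox MTX and KO MTX, with an averaged log2 fold change of -0.19 ± 0.14 (SE, adjusted p = 0.342). Card10, an adaptor upstream of NF-κB, was at 35.1 to 74.6 CPM, with 0.09 ± 0.14 (SE, adjusted p = 0.639). Both genotypes overlapped for both genes, and neither carried a 7-base site in the annotated region.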

How the data were processed

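RNA from eWAT of 12 HFD-fed mice was sequenced by the authors, as polyA RNA per the labels and as ribodepleted RNA per the methods. According to the submitters' processing notes, reads were trimmed with Trimmomatic 0.36, aligned to GRCm38 with STAR 2.5.2b and assigned to genes with featureCounts of Subread 1.5.2. The deposited values are raw counts per gene. The strand setting and the treatment of multi-mapping reads are not given in the sources used here, so genes with near-identical copies and antisense pairs are uncertain. Of 49315 gene identifiers, 49056 (99.5%) were matched to the GENCODE M21 annotation of GRCm38, from which positions and 3′ untranslated regions were taken.

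Counts were analysed in R 4.3.3 with edgeR 4.0.16 (limma 3.58.1): filterByExpr by group, TMM factors, a quasi-likelihood fit with 1 coefficient per group, and the contrast that averages the KO effect over vehicle and MTX. P-values were adjusted by Benjamini-Hochberg over the 18702 genes tested. CPM used TMM-scaled library sizes, a floor of 3 counts was used for genes near 0, and the exact permutation test (two-sided) rearranged genotypes within treatments on log2 CPM with a prior count of 2. The fit was tested on simulated data. Raw depth was 19495310 to 23976469 counts per library.

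Gene members, gene lists and tests were chosen with earlier results of these data known. Named genes were the 12 highest and 12 lowest in both treatments without overlap within a treatment and with at least 1 CPM in the higher genotype, ranked by the smaller absolute log2 fold change, without uncharacterised symbols. Up to 4 called members per list with the largest change were added, with Vcam1, Icam1, Sele, Kpna4, Card10, the miR-181 genes and the 5 called genes with the smallest interaction p. Nr6a1, Nr6a1os, Adipoq, Akt1, Ptpn1, Rgcc, Gsta3, Gsta4, Agt, the mitochondrial genes and copies, and the genes called with the covariate were added after their values were seen.

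Replicate numbers are shared between groups. Over 12 same-number pairs the median correlation of deviations from group means was 0.0353 (-0.273 to 0.254, 3 pairs above 0.1), against 0.0112 over 42 other pairs, so the numbers were not taken to pair mice. No pair of libraries within a group agreed within sampling noise. Alternatives were DESeq2 1.42.0, other scaling, filters and call limits, an additive model, the replicate block, the epididymis sum as covariate, and each library left out. The joint omission of flox vehicle 3 and flox MTX 1 was chosen after the data were seen.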

Additional observations from a re-analysis of the deposited data

Results flagged for a closer look

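The KO effect differed between vehicle and MTX, by edgeR's interaction test at an adjusted p below 0.1, for 185 genes (1248 in DESeq2, and 0 with the replicate number as a block), 4 of them among the genes that moved the same way in both treatments. Differences below are the log2 effect under MTX minus that under vehicle. Of the named genes, 8 are expressed in germ cells or, for Pgam2, also in muscle: Odf1 (11.71), Prm1 (10.02), Smcp (9.28), Pgk2 (7.94), Oaz3 (6.39), Adam5 (5.41), Hspb9 (5.40) and Pgam2 (3.97). Prm1, a protamine of sperm, was at 60.1, 55.3 and 24.5 CPM in flox vehicle and at most 1.09 CPM in the other 9 libraries, so its difference lies in the flox vehicle libraries, in which the testis list summed to 404 to 882 CPM. Fads2, a fatty acid desaturase, differed by 3.10. It was at 78.8, 183 and 41 CPM in flox vehicle, 8.46, 7.83 and 6.28 CPM in KO vehicle, 15.3, 9.59 and 10.7 CPM in flox MTX and 8, 6.85 and 7.91 CPM in KO MTX. Cldn15, a tight junction gene of the mesothelium list, differed by -1.08, with a log2 fold change of 1.17 under vehicle and 0.08 under MTX. The number of interaction calls was 5 to 1401 when single libraries were left out, and the part of testis and epididymal RNA in these differences was not tested.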

How the results depend on the processing

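Counts of calls were of similar size under DESeq2 (2335 higher and 3351 lower averaged, 1617 and 1942 in both treatments), RLE factors (2298 and 3115 averaged) and library size scaling (2586 and 2484 averaged). Requiring 10 counts in every library removed genes at 0 in KO mice and gave 1881 lower averaged and 968 lower in both treatments. A 2-fold limit gave 1306 higher and 1902 lower averaged, and 772 and 992 in both treatments, and without a fold limit 3432 and 4043 genes moved the same way. With the epididymis sum as covariate 9 were higher and 17 lower averaged, and 9 and 17 in both treatments. In that fit the log2 fold changes of Rel (-0.15), Tm7sf2 (0.000885), Nr6a1os (-0.42) and Card10 (-0.070) changed sign, and none was called in it. In DESeq2 2769 genes were called in the MTX pair and 1248 for the interaction.

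With the replicate number as a block, 1943 genes were called higher and 2422 lower averaged, 1398 and 1521 moved the same way, and 0 interaction calls remained of 185. The cause was not tested. When each library was left out in turn, averaged calls ranged from 2034 to 2894 higher and 2469 to 3155 lower, and same-way genes from 1234 to 2146 higher and 1523 to 1974 lower. MTX pair calls ranged from 0 to 4132, and interaction calls from 5 to 1401. Nr6a1os ranged from -0.003956 without flox MTX 4 to 0.75 without flox MTX 2. Without flox MTX 4, 73.6% of the higher and 80.6% of the lower same-way genes were kept, and without flox MTX 1, 89.5% and 74.2%. Without flox vehicle 3 and flox MTX 1 together, 1749 genes were higher and 1649 lower in both treatments, which kept 87.2% and 71.1%, and 5 rather than 9 complement genes were called higher. Of all values of named genes under the alternatives, 3461 kept direction and side of the threshold, 305 kept direction but lost the call and 5 changed sign.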

Other observations

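Complement genes had 9 of 14 members called higher (64.3%, against 12.5% of all genes) and 5 moving the same way, led by the anaphylatoxin receptors C5ar1 (log2 fold change 2.78 ± 0.40, SE) and C3ar1 (2.59 ± 0.45), and C2 was called lower (-0.83). Of 10 neutrophil genes 4 were called lower (40%, against 16% of all genes) and 1 higher (10%, against 12.5%). Of the 4, Ngp had at most 6 counts in any vehicle library, so its direction under vehicle is not settled at this depth. Camp, a cathelicidin, was at 0.26, 0.59 and 0.185 CPM in flox vehicle and 0, 0.127 and 0 CPM in KO vehicle, and at 0.142, 4.5 and 2.25 CPM in flox MTX and 0.131, 0.173 and 0.306 CPM in KO MTX. Ltf, lactoferrin, which the epididymis also expresses, was at 302, 312 and 200 CPM in flox vehicle and 48.5, 9.59 and 3.25 CPM in flox MTX. The neutrophil receptor gene Csf3r was called higher (1.05 ± 0.29, SE), and Elane lies next to Cfd.

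Of 18 genes of the integrated stress response, 4 were called higher (22.2%, against 12.5% of all genes) and 6 lower (33.3%, against 16%). Among those lower, Cth and Slc7a11 had means 3.29 and 10.2 times as high in the flox libraries with epididymal RNA as in flox MTX 2 and 4. For Phgdh that ratio was 0.822. Atf3, a stress-induced transcription factor, rose by 2.86 ± 0.53 (SE), while Phgdh, the first enzyme of serine synthesis, fell by 1.63 ± 0.35 (SE). Phgdh was at 481, 500 and 541 CPM in flox vehicle, 282, 141 and 95.5 CPM in KO vehicle, 340, 302 and 830 CPM in flox MTX and 193, 73.3 and 183 CPM in KO MTX. Among 18 p53 targets 3 were called higher (16.7%, near the 12.5% of all genes) and 1 lower (5.56%, below the 16% of all genes). The largest changes were in the kinase Plk2 (2.14 ± 0.30, SE) and in Perp (-1.68), an epithelial gene that was higher in the flox libraries with epididymal RNA. Of 19 clock genes 5 were called higher (26.3%), among them Per2 (0.86 ± 0.20, SE), and 2 lower (10.5%). Near or below the share of all tested genes called lower (16%) were cholesterol synthesis with 3 of 22 (13.6%, and 8 genes without flox MTX 2), B cell genes with 3 of 17 (17.6%) and mesothelium with 2 of 15 (13.3%, with 1 called higher). Skeletal muscle had 3 of 12 called higher (25%, against 12.5% of all genes).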
